A study of Rattus norvegicus with 20 samples.

Results

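Nqo1, Hmox1, Gclc, Gclm, Slc7a11, Gsr, Txnrd1, Srxn1 and Me1 are 9 antioxidant and NADPH genes of the programme run by the transcription factor NRF2, and their transcript levels were followed in rat liver over 5 doses of isodecyl diphenyl phosphate (IDDP), an organophosphate ester added to plastics as a softener and against fire. The 9 genes were chosen with earlier results of these data known, and their probe sets by symbol: every probe set that the array annotation pairs with exactly 1 of the 9 symbols was read. This gave 14 of the 31042 probe sets tested, for 9 of 14217 named genes, and 0 further probe sets listed a member among several symbols. The 20 animals were male Harlan Sprague-Dawley rats with 1 array each. Of these, 5 received the corn oil vehicle, and 3 each received IDDP in corn oil at 66, 132, 263.6, 527.1 or 1054.2 mg/kg body weight, the lowest of which equals 0.169 mmol/kg and the highest 2.7 mmol/kg. All were gavaged once a day on 4 days, controls included, and pieces of the left liver lobe were taken on day 5. Each array therefore holds RNA from every cell type of the lobe at a single time. The age of the animals is not given in the sources used here.

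NRF2, encoded by Nfe2l2, is held in the cytoplasm and marked for degradation by KEAP1. Electrophiles and oxidants modify KEAP1, NRF2 then accumulates, pairs with a small MAF protein and binds antioxidant response elements near its target genes. The targets detoxify quinones and free haem, make and recycle glutathione, recycle thioredoxin and peroxiredoxins, and supply the NADPH that these reductions consume. In liver this programme is known for its response to reactive drug metabolites, and much of it works in hepatocytes.

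Values are log2 probe set intensities after the RMA procedure, so a difference of 1 is a doubling of signal, and levels are not compared between genes. Where a gene had several probe sets, the one with the highest mean over all arrays stands for it. Hepatocyte genes were bright: the 9 measured genes of a list of 10 (Alb and Ttr among them) lay at percentiles 89.9 to 100 of all probe sets. For beta-actin and GAPDH the array carries controls at the 3' and the 5' end, and the 3' minus 5' difference, which grows as RNA degrades, averaged 1.64 in controls and 1.68 at 1054.2 mg/kg. Its highest values were 3.25 in replicate 2 at 132 mg/kg and 2.47 in replicate 2 at 263.6 mg/kg. Without these 2 arrays the changes at 132 mg/kg were 0.87 for Me1 (0.57 with them), 0.89 for Nqo1 (0.69), 0.65 for Gclm (0.51) and 0.35 for Gsr (-0.28), and at 263.6 mg/kg they were 1.28 for Nqo1 (1.28), 0.97 for Hmox1 (0.89) and 0.83 for Me1 (0.70). Nqo1 at 263.6 mg/kg was the 1 of these 7 that passed, with and without them. Of the other members at 132 mg/kg, Gclc was 0.32 (0.22) and Txnrd1 0.03 (-0.01) without the 2 arrays. Srxn1 went down to 0.21 (0.34), Slc7a11 to 0.16 (0.28) and Hmox1 further below its -0.27, and none of these passed. At 263.6 mg/kg Slc7a11 was 0.89 (0.58), Gsr 0.51 (0.29), Txnrd1 0.13 (0.05) and Gclc 0.04 (-0.08) without the 2 arrays. No member but Nqo1 passed at that dose.

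At 1054.2 mg/kg, 8 of the 9 genes rose and none fell in limma's test (adjusted p under 0.05 over all 31042 probe sets). Among all genes read from 1 probe set each, 2.69% rose at this dose. The exception was Gsr, glutathione reductase. The median change of the 9 was 1.06 on the log2 scale, between 0.58 for Txnrd1 and 1.62 for Nqo1, against a median of 0.00 over all genes. In every one of the 9, all 3 rats at 1054.2 mg/kg lay above all 5 controls, as did 13 of the 14 probe sets, and 6.6% of all probe sets showed that separation.

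Fewer members had risen at lower doses. At 527.1 mg/kg 3 of 9 rose, namely Nqo1, Srxn1 and Me1, with 1.96% of all genes higher, and the median change was 0.54. At 263.6 mg/kg Nqo1 was the 1 gene that rose, with 0.443% of all genes higher, and the median was 0.29. At 132 mg/kg 0 of 9 passed (0.0633% of all genes higher) and 4 had an unadjusted p under 0.05, as had 14.9% of all probe sets, with a median of 0.28. At 66 mg/kg 0 of 9 passed (0.0141% of all genes higher) and 1, Me1, had an unadjusted p under 0.05, as had 3.24% of all probe sets, with a median of 0.19. The median over all genes stayed between 0.00 and 0.01 at each dose. No member fell at any dose, and few genes did: 0, 0.0422, 0.225, 0.64 and 2.14% of all genes from the lowest to the highest. With shares this small, the lack of a fall does not set the 9 genes apart. These comparisons share the same 5 controls.

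**Figure D1:**
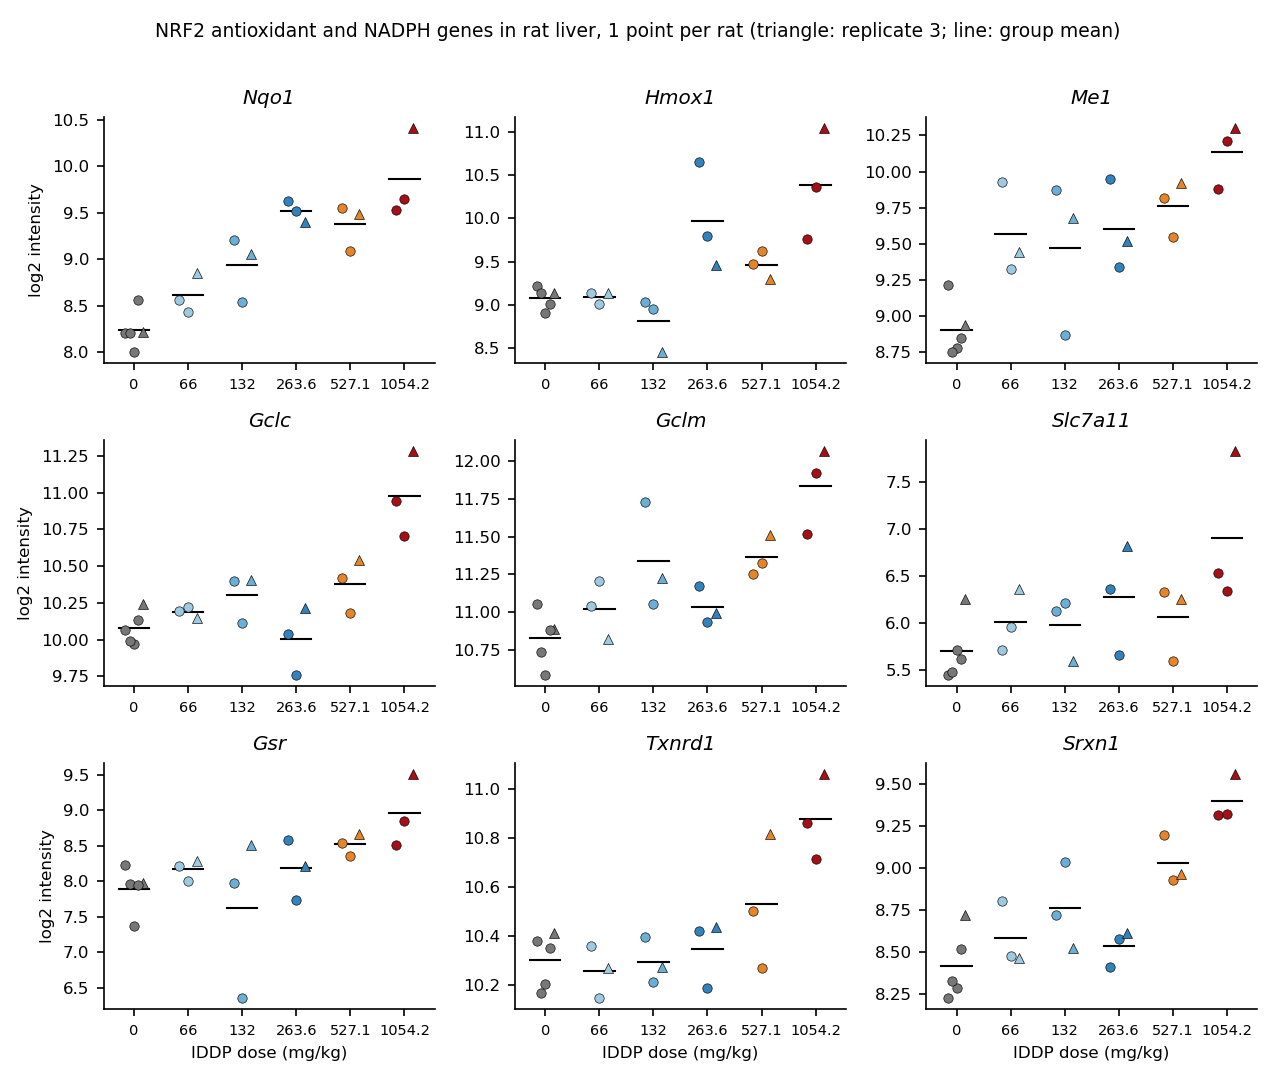
Log2 intensity of the 9 genes against IDDP dose in mg/kg, with 1 point per rat, a triangle for replicate 3 and a line for each group mean. At 1054.2 mg/kg all 3 rats lie above all 5 controls in every panel, and the triangle is the highest point of all 20 in every panel.

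The top doses were also set against each other. None of the 9 genes passed limma's test for 1054.2 minus 527.1 mg/kg, while 7 had an unadjusted p under 0.05 (6.08% of all probe sets had), and 0.0141% of all genes were higher. The median difference was 0.47, with -0.01 over all genes. In 5 of the 9 (Hmox1, Gclc, Gclm, Slc7a11 and Srxn1) every rat at 1054.2 mg/kg lay above every rat at 527.1 mg/kg, a separation seen in 4.36% of all probe sets. The margin between the lowest and the highest of these rats was narrowest in Gclm (11.516 against 11.514) and Slc7a11 (6.34 against 6.33). A slope over the 6 groups, per step of dose rank, passed for 8 of the 9, again without Gsr, and 4.6% of all genes had a slope past the threshold upward. The slopes ran from 0.10 log2 per step for Txnrd1 to 0.32 for Nqo1. In each of the 8 at least 1 group mean was below that of the dose before it, and in Nqo1, for instance, the mean was 9.52 at 263.6 and 9.38 at 527.1 mg/kg.

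**Figure D2:**
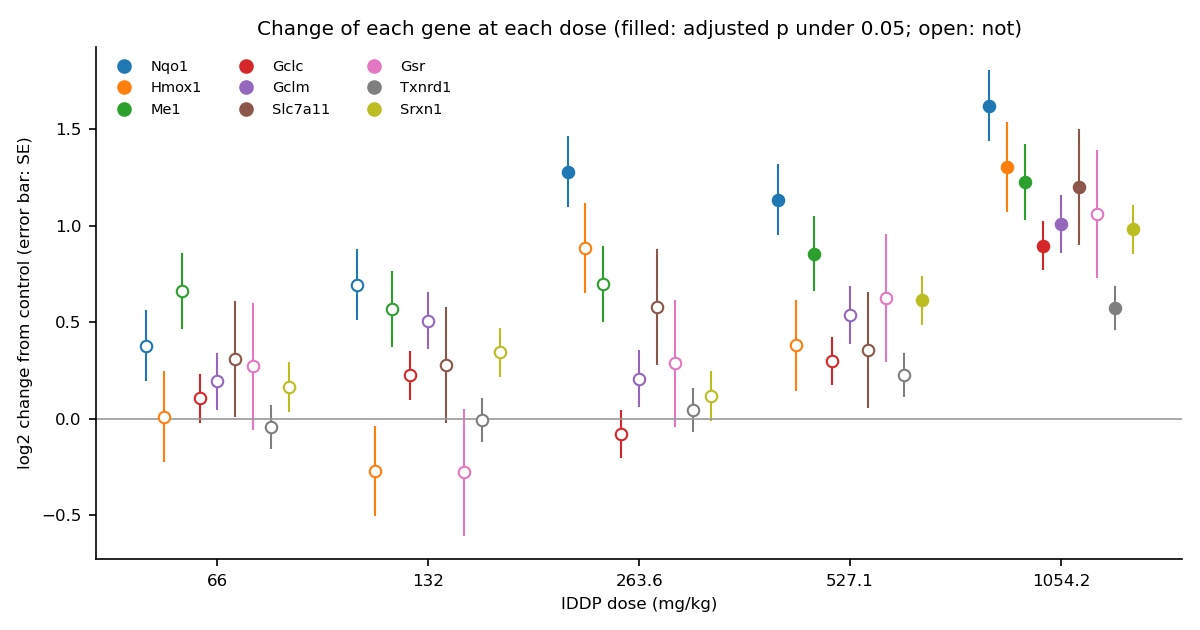
Log2 change from the control mean for each gene at each IDDP dose in mg/kg, with the standard error of the fit as bars. Filled symbols passed the adjusted p threshold and open ones did not: 1 gene is filled at 263.6, 3 at 527.1 and 8 at 1054.2 mg/kg.

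Since the genes moved together at the top dose, the RefSeq promoter windows of the rat assembly GRCr8 were read for the letters of the antioxidant response element, the DNA that NRF2 and small MAF proteins bind. Windows ran from 250 bases before to 50 bases after a start site and were found for 7 of the 9 genes (8 windows, since Txnrd1 has 2 starts); Hmox1 and Gsr had none. The core letters searched were TGACNNNGC, with N any base, on both strands. A longer form, TGANTCAGC, was added after the sequences had been seen, and 1 stretch can satisfy both. The core was in the windows of Gclm, Me1 and the second start of Txnrd1. That is 3 of the 7 genes and 3 of the 8 windows, beside 12.1% of all 33469 windows. The longer form was in the windows of Srxn1 and Me1. These are 2 of the 7 genes and 2 of the 8 windows, beside 1.11% of all windows. Nqo1, Gclc, Slc7a11 and the first start of Txnrd1 had no match to either form. The 4 windows with a match are shown from 180 bases before to 20 after the start, 5' to 3' on the gene's strand, with the matching letters in capitals. They lie at chr2:213031955-213032154 (Gclm, plus strand), chr7:22755885-22756084 (Txnrd1, minus strand), chr3:161064632-161064831 (Srxn1, plus strand) and chr8:96540225-96540424 (Me1, minus strand).
Gclm: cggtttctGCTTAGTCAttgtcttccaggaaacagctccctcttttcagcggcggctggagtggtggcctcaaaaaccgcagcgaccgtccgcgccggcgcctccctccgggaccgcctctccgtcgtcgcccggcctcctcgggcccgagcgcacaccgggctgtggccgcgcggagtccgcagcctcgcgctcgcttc
Txnrd1: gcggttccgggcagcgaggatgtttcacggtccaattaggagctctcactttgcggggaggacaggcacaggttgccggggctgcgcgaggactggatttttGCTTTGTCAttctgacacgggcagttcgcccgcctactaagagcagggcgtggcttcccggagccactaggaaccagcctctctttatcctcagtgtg
Srxn1: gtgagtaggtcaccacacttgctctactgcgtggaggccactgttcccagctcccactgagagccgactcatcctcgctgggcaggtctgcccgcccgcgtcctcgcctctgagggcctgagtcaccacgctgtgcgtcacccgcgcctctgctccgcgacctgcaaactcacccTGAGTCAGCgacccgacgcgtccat
Me1: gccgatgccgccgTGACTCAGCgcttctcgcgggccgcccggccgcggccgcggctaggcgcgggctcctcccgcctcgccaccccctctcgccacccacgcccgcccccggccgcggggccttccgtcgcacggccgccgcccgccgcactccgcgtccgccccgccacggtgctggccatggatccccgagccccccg
The matching letters begin 172 bases before the start in Gclm, 78 in Txnrd1, 5 in Srxn1 and 167 in Me1. In Gclm and Txnrd1 the match is on the opposite strand, where it reads TGACTAAGC and TGACAAAGC. It reads TGAGTCAGC in Srxn1 and TGACTCAGC in Me1, where 1 stretch satisfies both forms. A match of letters describes the window and is not a measured binding site.

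Among the 9 genes, the rise that passed at the lowest dose and was largest at the highest was in quinone detoxification. Nqo1 (probe set 1387599_a_at) encodes the NAD(P)H quinone reductase that takes quinones to hydroquinones in 1 step and is the textbook NRF2 target. The control rats read 8.20, 8.004, 8.22, 8.21 and 8.56. The rats at 66 mg/kg read 8.57, 8.43 and 8.86, and those at 132 mg/kg 9.21, 8.54 and 9.06, so at both doses 2 of 3 rats lay above every control. The values were 9.63, 9.52 and 9.41 at 263.6 mg/kg, 9.55, 9.09 and 9.48 at 527.1 mg/kg, and 9.53, 9.65 and 10.41 at 1054.2 mg/kg. From 263.6 mg/kg upward every rat lay above every control, a separation shown by 4.82% of all probe sets at 263.6 mg/kg and by 7.04% at 527.1 mg/kg.

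The change of Nqo1 was 0.38 ± 0.18 (SE, adjusted p = 0.99997) at 66 mg/kg and 0.69 ± 0.18 (adjusted p = 0.126) at 132 mg/kg, and neither passed. It passed at 263.6 mg/kg with 1.28 ± 0.18 (adjusted p = 0.00187) and at 527.1 mg/kg with 1.14 ± 0.18 (adjusted p = 0.00256). At 1054.2 mg/kg the mean had gone from 8.24 ± 0.20 (SD, n = 5) to 9.86 ± 0.48 (SD, n = 3), a 3.08-fold rise (1.62 ± 0.18 SE, adjusted p = 2.95e-05). The 3 upper doses overlapped each other, and the difference between 1054.2 and 527.1 mg/kg, 0.49 ± 0.21, did not pass (adjusted p = 0.780).

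Hmox1 (1370080_at) encodes haem oxygenase 1, the inducible enzyme that opens haem to biliverdin, iron and carbon monoxide. Controls read 9.22, 8.91, 9.13, 9.14 and 9.01, and the rats at 66 mg/kg, with 9.13, 9.01 and 9.13, and at 132 mg/kg, with 9.03, 8.95 and 8.45, did not exceed them. The values were 10.65, 9.79 and 9.46 at 263.6 mg/kg, 9.47, 9.62 and 9.30 at 527.1 mg/kg, and 9.76, 10.36 and 11.04 at 1054.2 mg/kg. All 9 of these upper-dose rats exceeded every control, and the spread within the 263.6 and 1054.2 mg/kg groups (SD 0.61 and 0.64) was wider than the difference between their means. The rise was 2.47-fold at 1054.2 mg/kg (1.30 ± 0.23 SE, adjusted p = 0.00302). The changes at 263.6 mg/kg (0.89 ± 0.23, adjusted p = 0.102) and at 527.1 mg/kg (0.38 ± 0.23, adjusted p = 0.525) did not pass. The first of these passed without replicate 3 of that dose (1.14, adjusted p = 0.0451).

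Hmox1 is also a gene of Kupffer cells, the macrophages of the liver, which break down haem from red cells. In bulk tissue, fewer cells of a type and less RNA per cell cannot be told apart. Of the 11 measured Kupffer cell and macrophage markers (of 14 listed), 6 fell at 1054.2 mg/kg and none rose, with a median change of -0.54, where 2.14% of all genes fell. The 6 were Clec4f, Cd5l, C1qa, C1qb, C1qc and Csf1r. The mean log2 level of the list lay between 9.67 and 10.11 in controls and between 9.36 and 9.56 at 1054.2 mg/kg. At 263.6 mg/kg, where the highest single Hmox1 value of the lower doses was seen, 1 of 5 measured neutrophil markers rose, S100a9 by 1.46 ± 0.30 (adjusted p = 0.0339), where 0.443% of all genes rose, and the list lay between 5.72 and 6.19 against 5.33 to 5.65 in controls. The part of either cell type in the Hmox1 values was not tested.

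Transcripts of both subunits of the rate-limiting ligase of glutathione synthesis rose at the top dose. Gclc encodes the catalytic and Gclm the modifier subunit of glutamate-cysteine ligase. For Gclc (1372523_at) controls read 10.06, 9.97, 10.24, 9.99 and 10.13. The rats at 527.1 mg/kg read 10.42, 10.18 and 10.54 and overlapped them, and those at 1054.2 mg/kg read 10.94, 10.70 and 11.28 and did not. The mean went from 10.08 ± 0.11 (SD, n = 5) to 10.98 ± 0.29 (SD, n = 3), a 1.86-fold rise (0.90 ± 0.13 SE, adjusted p = 0.000281). The 3 lower doses lay between 9.76 and 10.40, and at 263.6 mg/kg the change was -0.08 ± 0.13 (adjusted p = 0.856).

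For Gclm (1370030_at) controls read 11.05, 10.58, 10.88, 10.74 and 10.88. The values were 11.25, 11.33 and 11.51 at 527.1 mg/kg and 11.52, 11.92 and 12.07 at 1054.2 mg/kg, and at both doses every rat exceeded every control. The rise was 2.01-fold at 1054.2 mg/kg (1.01 ± 0.15, adjusted p = 0.000477). The change at 527.1 mg/kg, 0.54 ± 0.15, did not pass (adjusted p = 0.0752), and it passed when only the 2 groups were fitted (adjusted p = 0.0257) or with RNA quality as a covariate (adjusted p = 0.0470). Replicate 1 at 132 mg/kg, at 11.73, was higher than any rat at 527.1 mg/kg.

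Slc7a11 (1378133_at) encodes the cystine carrier xCT, which brings in the cysteine that glutathione synthesis needs. Its signal was dim, with its mean at percentile 45.1 of all probe sets. Controls read 5.45, 5.71, 6.25, 5.48 and 5.61, the rats at 527.1 mg/kg 6.33, 5.59 and 6.25, and those at 1054.2 mg/kg 6.53, 6.34 and 7.83. The last group cleared every control, the other 4 dose groups did not, and replicate 3, at 7.83, was the highest of the 20 arrays. The 2.30-fold rise (1.20 ± 0.30, adjusted p = 0.0303) rests on single arrays: without that replicate the change was 0.74 (adjusted p = 0.242), and without control replicates 1, 2, 4 or 5 the adjusted p was between 0.0530 and 0.0728. It did not pass either with a robust mean-variance trend in the fit (adjusted p = 0.0615). The 4 lower-dose changes lay between 0.28 and 0.58 and did not pass.

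Gsr (1369061_at) encodes glutathione reductase, which spends NADPH to turn oxidised glutathione back to its reduced form. Controls read 8.23, 7.37, 7.97, 7.96 and 7.95. The values were 8.54, 8.36 and 8.66 at 527.1 mg/kg and 8.51, 8.85 and 9.51 at 1054.2 mg/kg, and all 6 rats exceeded every control. The 2.09-fold difference at 1054.2 mg/kg (1.06 ± 0.33, 95% interval 0.37 to 1.75) did not pass (adjusted p = 0.0893), although Gclm passed with a change of 1.01. The widest spread was at 132 mg/kg, where the rats read 7.98, 6.36 and 8.52.

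The value of 6.36, in replicate 2 at 132 mg/kg, was the lowest Gsr value of the 20 arrays and came from the array with the largest 3' minus 5' difference. Without that array, an alternative added after the data were seen, the Gsr difference at 1054.2 mg/kg was the same 1.06 with an adjusted p of 0.00758. Leaving out replicate 2 at 263.6 mg/kg as well gave 0.00485. The adjusted p was 0.0210 with only the 2 groups in the fit and 0.000938 with the 3' minus 5' difference as a covariate (change 1.10). Gsr passed in these 4 alternatives and did not pass in 14 others. Among the latter were a robust mean-variance trend (0.154), quantile normalization again (0.111), centred medians (0.0872) and the replicate number as a block (0.0794). With single arrays of the 2 groups left out the adjusted p lay between 0.0665 and 0.374. The Gsr slope over dose, 0.19 ± 0.06 per step (adjusted p = 0.0745), also passed without that array (adjusted p = 0.00405).

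**Figure D3:**
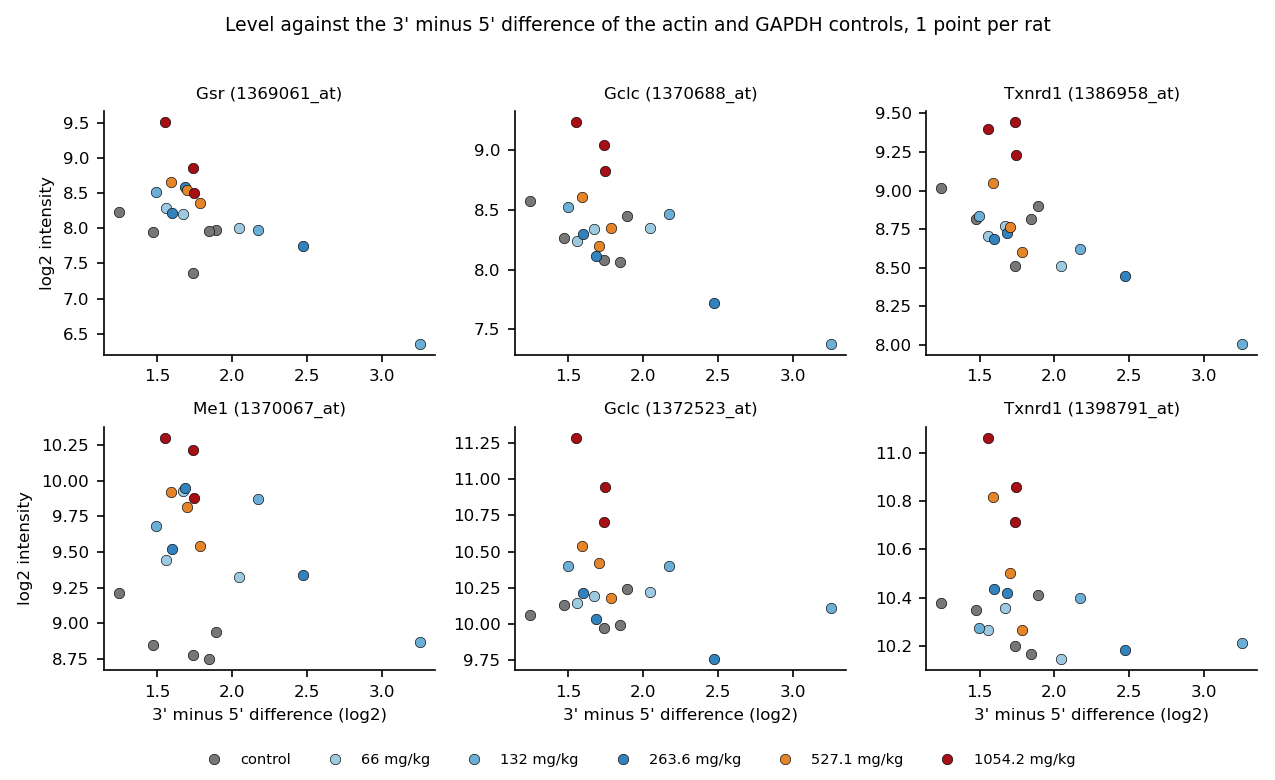
Log2 intensity of 6 member probe sets against the 3' minus 5' difference (log2) of the actin and GAPDH controls on the same array, with 1 point per rat coloured by dose. The rightmost point, 132 mg/kg replicate 2 at 3.25, is the lowest of 20 for Gsr, Gclc 1370688_at and Txnrd1 1386958_at, and lies within the range of the controls in the lower row.

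The thioredoxin and peroxiredoxin branch was read from a reductase and a repair enzyme. Txnrd1 encodes the cytosolic thioredoxin reductase, a selenoprotein that passes electrons from NADPH to thioredoxin. For 1398791_at controls read 10.38, 10.20, 10.41, 10.17 and 10.35. The rats read 10.50, 10.27 and 10.82 at 527.1 mg/kg, overlapping the controls, and 10.86, 10.71 and 11.06 at 1054.2 mg/kg, above all of them. The rise was 1.49-fold (0.58 ± 0.11, adjusted p = 0.00637), the smallest of the 9, and without replicate 3 at 1054.2 mg/kg it was 0.48 with an adjusted p of 0.0682.

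Srxn1 encodes sulfiredoxin, which restores peroxiredoxins whose active cysteine has been over-oxidised. For 1372510_at controls read 8.23, 8.29, 8.72, 8.33 and 8.52. The values were 9.19, 8.93 and 8.97 at 527.1 mg/kg and 9.31, 9.32 and 9.56 at 1054.2 mg/kg, so the 3 groups stood in order with no overlap. The rise was 1.53-fold at 527.1 mg/kg (0.61 ± 0.13, adjusted p = 0.0166) and 1.97-fold at 1054.2 mg/kg (0.98 ± 0.13, adjusted p = 0.00014). The call at 527.1 mg/kg was lost without replicate 1 of that dose (adjusted p = 0.113) or replicate 3 (adjusted p = 0.0560). The difference between these doses, 0.37 ± 0.14, did not pass (adjusted p = 0.718).

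Me1, the cytosolic malic enzyme, makes NADPH while turning malate to pyruvate, and serves lipid synthesis as well as redox defence. For 1370067_at controls read 9.21, 8.78, 8.94, 8.75 and 8.85. At 66 mg/kg the rats already read 9.93, 9.32 and 9.45, all above every control, which 2.68% of all probe sets showed at that dose. The values were 9.87, 8.87 and 9.68 at 132 mg/kg, 9.95, 9.34 and 9.52 at 263.6 mg/kg, 9.82, 9.55 and 9.92 at 527.1 mg/kg, and 9.88, 10.22 and 10.30 at 1054.2 mg/kg. Apart from replicate 2 at 132 mg/kg, each treated rat lay above each control, and the 4 lower doses overlapped one another.

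The change of Me1 was 0.66 ± 0.20 at 66, 0.57 ± 0.20 at 132 and 0.70 ± 0.20 at 263.6 mg/kg, and none of these passed (adjusted p = 0.99997, 0.206 and 0.121). It was 0.86 ± 0.20 at 527.1 mg/kg (adjusted p = 0.0278) and 1.23 ± 0.20 at 1054.2 mg/kg (adjusted p = 0.000916), the latter a 2.34-fold rise. The call at 527.1 mg/kg was lost without replicates 1 or 3 of that dose (adjusted p = 0.118 and 0.132) and without control replicates 2, 3 or 4 (0.0574 to 0.0729). With RNA quality as a covariate the change at 263.6 mg/kg was 0.84 and passed (adjusted p = 0.0131). The unadjusted p at 66 mg/kg was 0.00302.

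**Figure D4:**
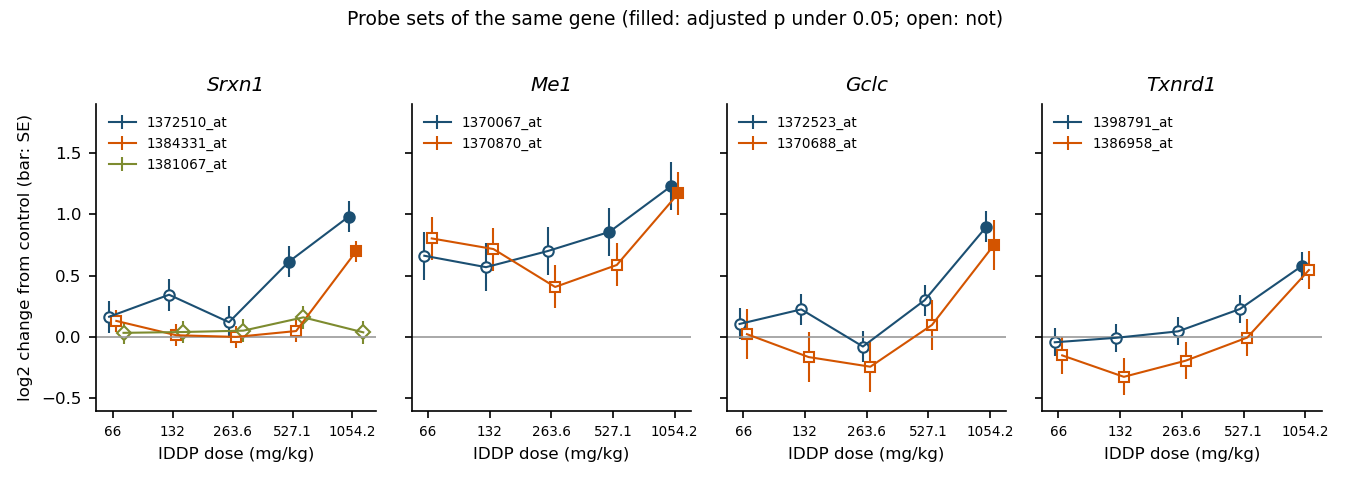
Log2 change from control with its standard error against IDDP dose in mg/kg for the genes read by more than 1 probe set, with filled symbols past the adjusted p threshold. Me1, Gclc and Txnrd1 show 2 lines that end close together at 1054.2 mg/kg, while the Srxn1 lines end at 0.98, 0.70 and 0.04.

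Srxn1, Me1, Gclc and Txnrd1 were each read by more than 1 probe set, which gave 11 of 14 member probe sets higher at 1054.2 mg/kg (1.86% of all probe sets were). The second Me1 probe set, 1370870_at, read 8.46, 8.57, 8.73, 8.44 and 8.54 in controls and 9.48, 9.29 and 9.28 at 66 mg/kg, again with no overlap. Its change there, 0.80 ± 0.18, did not pass (adjusted p = 0.378) and passed when only the 2 groups were fitted (adjusted p = 0.0114). At 1054.2 mg/kg its rise of 1.17 ± 0.18 (adjusted p = 0.000536) was close to the 1.23 of the first. In between, the second probe set changed by 0.41 ± 0.18 at 263.6 mg/kg (0.70 on the first) and by 0.59 ± 0.18 at 527.1 mg/kg, where it did not pass (adjusted p = 0.101) and the first did. Replicate 2 at 132 mg/kg, the exception on the first probe set, read 9.43 on the second, the highest of its group.

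The 3 Srxn1 probe sets differed. On the dim 1384331_at, controls lay between 5.62 and 5.85, the rats at 527.1 mg/kg read 5.77, 5.60 and 5.98, and those at 1054.2 mg/kg read 6.39, 6.49 and 6.41. Here the rise of 0.70 ± 0.09 (adjusted p = 8.53e-05) came at the top dose, and the step from 527.1 mg/kg, 0.65 ± 0.10, passed (adjusted p = 0.0196) as the 1 of 14 member probe sets that did, with 0.00966% of all probe sets higher. That step did not pass without replicates 1 or 2 at 527.1 mg/kg (adjusted p = 0.104 and 0.0832) or 2 or 3 at 1054.2 mg/kg (0.0772 and 0.0727), nor with only the 2 groups in the fit (0.587). The third, 1381067_at, also dim, changed by 0.04 ± 0.09 (adjusted p = 0.905, 95% interval -0.15 to 0.23). It was the only member probe set whose rats at 1054.2 mg/kg overlapped the controls.

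The second Gclc probe set, 1370688_at, rose by 0.75 ± 0.20 at 1054.2 mg/kg (adjusted p = 0.0472), a call held without control replicate 1 and lost without any other single array of these 2 groups (adjusted p between 0.0505 and 0.219). It was also lost with quantile normalization again (0.0715) and with a robust mean-variance trend in the fit (0.0507). The second Txnrd1 probe set, 1386958_at, differed by 0.54 ± 0.15 (adjusted p = 0.0543) and passed without replicate 2 at 132 mg/kg (adjusted p = 0.0127). That array read 7.38 on the Gclc and 8.01 on the Txnrd1 probe set, below every control (8.06 to 8.57 and 8.51 to 9.02). On the brighter probe sets of the same genes it read 10.11 and 10.21, within the controls.

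A single rat led in all 9 genes. Replicate 3 at 1054.2 mg/kg was the highest of its group and of all 20 arrays in 9 of the 9 genes, and the highest of its group in 11 of the 14 probe sets. Over all 14217 genes it was the highest of its group in 26.4% and of all arrays in 3.97%, and over the 383 genes that rose at that dose in 47.0% and 37.6%. Its mean deviation from the control means over the 9 genes was 1.51, against 0.82 and 0.96 in replicates 1 and 2. Without this rat 6 of the 9 genes rose instead of 8, the calls lost being Slc7a11 and Txnrd1. The share of all genes that rose in that fit was not counted. Its 3' minus 5' difference, 1.55, was the lowest of its group, where the others were 1.74 and 1.75, and the part of RNA quality in its values was not tested.

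The wider pathway was read from lists of genes around the members, again by 1 probe set a gene at 1054.2 mg/kg, where 2.69% of all genes rose and 2.14% fell. Of 12 measured genes on the list of NRF2 regulators, which also holds NRF2 itself and its relative Nfe2l1, 2 rose and none fell (median 0.23). Maff, a small MAF partner, rose by 0.80 ± 0.20 (adjusted p = 0.0307), with dim controls between 4.95 and 5.08. Nfe2l1, a relative of NRF2 best known for control of proteasome genes, rose by 0.49 ± 0.10 (adjusted p = 0.00957). The Maff call was lost without control replicates 1 to 4 (adjusted p between 0.0547 and 0.0635) or replicate 3 at 1054.2 mg/kg (0.242), and the Nfe2l1 call without replicates 2 or 3 at that dose (0.0824 and 0.0542). The transcript of NRF2 itself, chosen for its role after its values were seen, changed by -0.42 ± 0.17 (adjusted p = 0.235), that of Keap1 by 0.37 ± 0.11 (0.0818) and that of the repressor Bach1 by -0.22 ± 0.11 (0.362).

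Among 16 other quinone, aldehyde and carbonyl genes, 6 rose and none fell, while the median change was 0.19. Between 4 and 5 rose when any single array of these groups was left out, and the 3 genes named next passed each time. The share of all genes that rose in those fits was not counted. The largest were Akr7a3, an aflatoxin aldehyde reductase, by 1.91 ± 0.23 (adjusted p = 7.10e-05), Aldh1a1, which oxidises retinal and other aldehydes, by 1.36 ± 0.10 (adjusted p = 1.27e-07), and Ephx1, the microsomal epoxide hydrolase, by 0.88 ± 0.16 (adjusted p = 0.00319). Akr7a3 went from between 11.05 and 11.60 in controls to 13.07, 13.10 and 13.74. Of 7 measured haem and iron genes 2 rose and none fell (median 0.19). These were Blvrb, a biliverdin reductase acting downstream of Hmox1, by 0.77 ± 0.13 (adjusted p = 0.00157), and the haem transporter Slc48a1 by 0.51 ± 0.12 (adjusted p = 0.0245). The Slc48a1 call was lost without control replicates 3 or 4, or replicates 1 or 3 at 1054.2 mg/kg (adjusted p between 0.0575 and 0.198), and when quantile normalization was applied again (0.110).

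Of 20 other glutathione genes measured, 1 rose and 2 fell, with a median of 0.06. Ggt1, which cleaves extracellular glutathione, rose by 1.34 ± 0.21 (adjusted p = 0.000936), from between 6.19 and 6.70 in controls to 7.41, 7.37 and 8.32. Cth, which makes cysteine from cystathionine, changed by -0.74 ± 0.16 (adjusted p = 0.0101), a call lost without replicate 3 at 1054.2 mg/kg (-0.52, adjusted p = 0.106). Anpep, an aminopeptidase that can split cysteinylglycine, changed by -0.38 ± 0.10 (adjusted p = 0.0448), and that call was lost without any single array of these groups other than control replicate 3 (0.0710 to 0.190) and with array medians centred (0.0823).

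Of 15 measured thioredoxin and peroxiredoxin genes beyond the members, none rose and 1 fell (median 0.08). It was Txnip, which binds and inhibits thioredoxin, with a change of -0.79 ± 0.15 (adjusted p = 0.00482) and all 3 rats, at 9.85, 9.56 and 9.65, below the controls (10.11 to 10.84). Of 14 measured NADPH sources other than Me1, 0 passed and 6 had an unadjusted p under 0.05 (median 0.06), which 15.1% of all probe sets had at this dose. The largest change there was in Mthfd2, a mitochondrial folate enzyme, at 1.07 ± 0.32 (adjusted p = 0.0755). It passed without control replicate 3 (1.24, adjusted p = 0.0443) or with only the 2 groups fitted (0.0192). Of 5 superoxide and peroxide genes, 0 passed and 1 had an unadjusted p under 0.05 (median 0.07), and the largest change was -0.60 ± 0.37 for Sod3, the extracellular superoxide dismutase (adjusted p = 0.502).

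Of 6 ABC exporters counted among NRF2 targets, 3 rose and none fell (median 0.31). Abcc3, which carries glucuronides and bile acids into blood, read 6.38, 6.36, 6.63, 6.83 and 6.72 in controls and 9.72, 9.69 and 10.59 at 1054.2 mg/kg (3.42 ± 0.28, adjusted p = 4.34e-07). Abcc4, a sinusoidal exporter, rose by 1.09 ± 0.19 (adjusted p = 0.00268). Abcc2, the canalicular exporter of conjugates, rose by 0.43 ± 0.10 (adjusted p = 0.0177), a call lost without control replicate 4 (0.0507) or replicates 2 or 3 at 1054.2 mg/kg (0.142 and 0.0897). Prdx1, Fth1, Ftl1, Nfe2l3 and Ggt6 were on the lists and had no probe set with that 1 symbol.

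**Figure D5:**
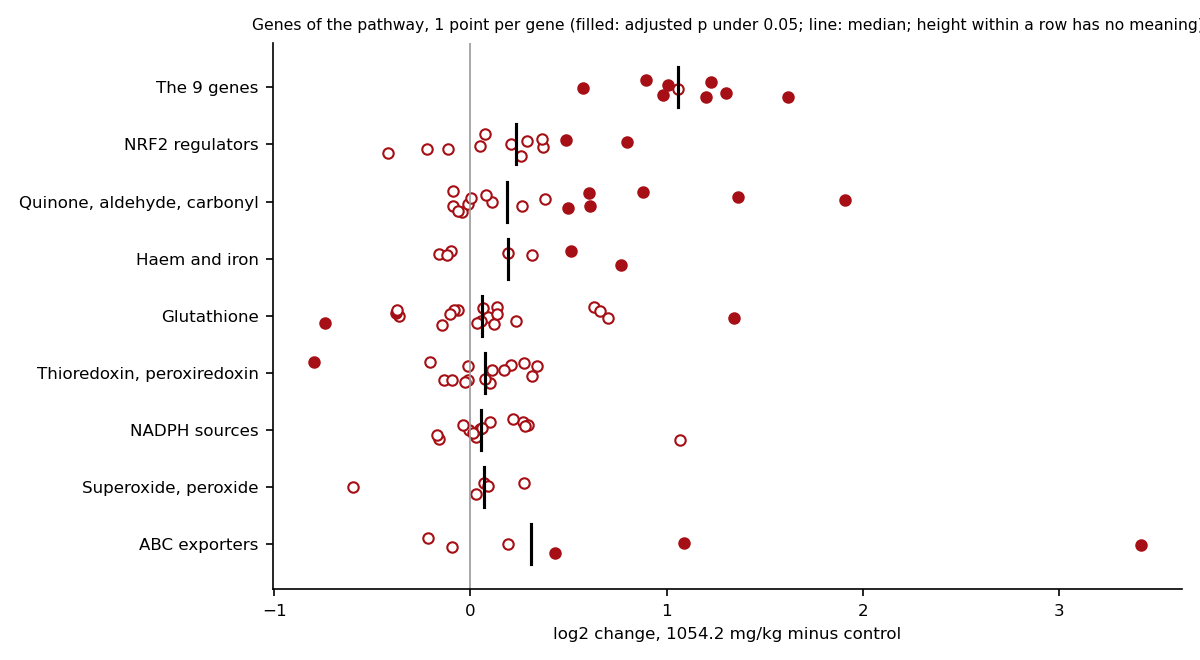
Log2 change at 1054.2 mg/kg relative to control for the 9 genes and for 8 lists of related genes, with 1 point per gene, filled where the adjusted p passed, and a line at each median. The 9 genes have a median of 1.06, while the list medians lie between 0.06 and 0.31.

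The members differed in the shape of their response over the 5 doses. Likeness was measured as the root mean square difference between the 5 log2 changes of a pair of genes, over the 14208 genes that are no members. Genes with an identifier in place of a usual symbol were passed over, which left out 1 nearer gene each for Slc7a11 and Me1. Nqo1 was nearest to Cers6, a ceramide synthase (0.14), Zdhhc2 (0.16) and Aldh1a1 (0.18), genes with changes of 0.98 to 1.09 at 263.6 mg/kg. Hmox1 was nearest to Cyp1a1 (0.21), Acsm2 (0.23) and Enc1 (0.28). Gclc was nearest to Nceh1 (0.08), Ugt2b10 (0.11) and Wwc1 (0.12), and Gclm to Sik2, Mab21l3 and Gramd2b (0.12 each).

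Srxn1 shared the last 2 of these genes, at 0.09 and 0.11, after Ugt2a1 (0.09), and lay 0.09 from Gclm itself. Txnrd1 was nearest to Slc2a1, a glucose transporter (0.05), Hprt1 (0.06) and Deptor (0.07), and Slc7a11 to Glyatl2 (0.13), Cyp1a1 (0.14) and Nol3 (0.15). Me1 was nearest to Phgdh, the first enzyme of serine synthesis (0.15), Ugt2b34l1 (0.15) and Cyp3a18 (0.18). All changes share the 5 controls, so these distances describe the curves and carry no test. They take in the size of the changes as well as their course over dose. Apart from Enc1 with Hmox1, each was below the standard error of 1 change of that member (0.11 for Txnrd1 to 0.30 for Slc7a11). The order of the nearest genes is therefore not resolved.

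Markers of several other cell types fell at 1054.2 mg/kg, where 2.14% of all genes fell and 15.1% of all probe sets had an unadjusted p under 0.05. Beside the Kupffer cell list, 4 of 10 stellate cell and fibroblast markers fell (Lrat, Pdgfrb, Col3a1 and Reln), with list means of 7.61 to 7.98 in controls and 7.42 to 7.54 at 1054.2 mg/kg. Of 8 measured endothelial markers 2 fell, Pecam1 and Gpr182 (8.97 to 9.26 against 8.65 to 8.98). Of 8 pancreas markers 1, Cela1, fell (6.15 to 6.25 against 5.999 to 6.05). None of 4 measured erythroid markers passed (2 with an unadjusted p under 0.05; 8.06 to 8.78 against 7.48 to 8.25), and none of 5 neutrophil markers (1 with an unadjusted p under 0.05; 5.33 to 5.65 against 5.16 to 5.47). None of the 9 hepatocyte genes passed (1 with an unadjusted p under 0.05), and their mean lay between 13.71 and 13.80 in controls and between 13.59 and 13.66 at 1054.2 mg/kg. No marker of any list rose at this dose. The Kupffer cell, stellate cell and endothelial lists also had negative medians at each lower dose. The most negative of these is given next for each list. The 132 mg/kg group held the array with the largest 3' minus 5' difference. The Kupffer cell list had a median change of -0.58 at 132 mg/kg, where 0 of 11 passed and 8 had an unadjusted p under 0.05 (14.9% of all probe sets). The endothelial list had -0.34 at 66 mg/kg, where 0 of 8 passed and 7 had an unadjusted p under 0.05 (3.24% of all probe sets). The stellate cell list had -0.55 at 263.6 mg/kg, where 0 of 10 passed (0.225% of all genes fell). The part of cell composition in the members' values was not tested.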

How the data were processed

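Liver RNA of 20 rats (100 ng per array) was measured on Affymetrix arrays, and each rat's group is the dose its label states. The authors deposited 1 table of log2 intensities per probe set, and RMA is the method named, per the submitters' processing notes. Sources used here do not give its version or the set of arrays it was run on. Array medians lay between 6.32 and 6.41. RMA pulls arrays to a common distribution and compresses dim signals, so dim changes may be understated. The number of arrays limits the precision.

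Of 31099 probe sets, 57 Affymetrix controls were left out and 31042 were tested. Symbols came from the platform annotation: 20826 probe sets had 1 symbol, 436 several and 9780 are unnamed here, and 20758 matched RefSeq by Entrez identifier with 0 symbols updated. Each dose was compared with control in limma 3.58.1 (R 4.3.3), with 1 mean per group, all 20 arrays and moderated variances (residual degrees of freedom 14, prior 5.75). All tests are two-sided, with Benjamini-Hochberg adjustment over 31042 probe sets and a threshold of 0.05. The slope used dose ranks 0 to 5. Changes carry standard errors and means standard deviations. The p-values weigh a difference against the moderated spread between rats.

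The members and lists were chosen with earlier results of these data known. All members were named; of each list, up to 3 genes of largest change among those past the threshold at 1054.2 mg/kg, or the 1 of largest change; and for each member past it, the 3 genes nearest over dose, other members and genes without a usual symbol passed over. Lists covered NRF2 regulators, quinone and carbonyl, haem and iron, glutathione, thioredoxin, NADPH, superoxide and ABC exporter genes, and markers of 7 cell or tissue types.

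On simulated data for 1054.2 mg/kg against control (31042 probe sets, 50 changed per size), limma recovered 60% of changes of 0.5 log2, 98% of 1, and 100% of 2 and 3. Rats of equal replicate number did not deviate together (45 pairs, r between -0.352 and 0.472, median 0.0668), and no label ties the numbers to a shared animal or day, so the fit has no block. Alternatives covered scaling, a filter on dim probe sets, variance model, RNA quality, choice of probe set, samples fitted and left-out arrays.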

Additional observations from a re-analysis of the deposited data

Results flagged for a closer look

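In 2 of 30 probe sets examined, a control rat stood apart from the other 4, and chance alone gives about 1 such group in 20. For Cth, control replicate 1 was the highest control at 13.73, with 0.77 of the group's range between it and the next rat. For Mthfd2, control replicate 3 was the highest at 8.02, with 0.75 of the range below it.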

How the results depend on the processing

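Of the counts of members past the threshold, the one at 1054.2 mg/kg lay between 6 and 8 when single arrays of the groups compared were left out, was 9 without replicate 2 at 132 mg/kg (Gsr added), which only shares in the variance, and lay at 7 to 9 under the other alternatives, and the slope count between 6 and 9. At 263.6 mg/kg the count was 2 with RNA quality as a covariate (Me1 added) and 1 to 2 with single arrays left out. At 527.1 mg/kg it was 5 with that covariate (Gclm and Gsr added) and 1 to 3 with single arrays left out. With the replicate number as a block it was 1 at 527.1 mg/kg, where Srxn1 (0.62, adjusted p = 0.0829) and Me1 (0.78, 0.0581) were lost, and at 1054.2 mg/kg Slc7a11 was lost (1.10, 0.0711), as were the Gclc probe set 1370688_at (0.67, 0.110), Maff (0.0839), Slc48a1 (0.0562), Anpep (0.181) and Abcc2 (0.0902), the Srxn1 1384331_at step from 527.1 mg/kg (0.0689) and the slopes of Slc7a11 (0.0955) and Me1 1370870_at (0.148); 7 of 20 arrays correlated best with their own number. For 1054.2 minus 527.1 mg/kg the count was 1 when the probe set of smallest p stood for each gene. The share of all genes past the threshold was not counted in any of these alternatives. A changed count of members therefore cannot be told apart from a changed rate of calls over all genes. Changes that turned sign, none of them past the threshold, were these: Hmox1 at 66 mg/kg, -0.0213 with quantile normalization again and -0.0322 to 0.0519 with single arrays left out; Gclc at 263.6 mg/kg, 0.0434 without the replicates 2 of 132 and 263.6 mg/kg and -0.184 to 0.0434 with single arrays left out; Gsr at 132 mg/kg, 0.44 with the covariate, 0.35 without those arrays, and -0.73 to 0.35; Txnrd1 at 132 mg/kg, 0.0373 with medians centred, 0.0964 with the covariate, 0.0345 without those arrays, and -0.0582 to 0.0345; Txnrd1 at 66 mg/kg, -0.0941 to 0.0120, and at 263.6 mg/kg, -0.19 on its other probe set; and Srxn1 1381067_at at 1054.2 mg/kg, -0.0328 to 0.104. The cause was not tested. Slc7a11 was below the limit of the filter on dim probe sets and had no value there. The fit of only the groups compared was not run for the slope. Dim signals limit Slc7a11, Maff and the Srxn1 probe sets 1384331_at and 1381067_at.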
